A study of Solanum lycopersicum with 8 samples.

Results

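The epidermal cuticle genes described here are 9 tomato genes listed by gene ID for roles in building or regulating the cuticle. The rule uses no measured value, but the list was drawn up with earlier results of these data known. Of these, 8 have a row among the 34109 genes of the expression table, and 7 reached the level needed for a test. The ninth, the SHN-type gene Solyc06g053240, had no row under its ID and was not analysed here. Inflorescence meristems were dissected from 8-week-old plants of 2 tomato (*Solanum lycopersicum*) double mutants, *ej2* *j2* and *plt3* *plt7*, and RNA was sequenced from 4 libraries of each after removal of ribosomal RNA. *ej2* *j2* carries mutations in the paralogous *SEP* MADS-box genes *EJ2* and *J2*. *plt3* *plt7* carries CRISPR–Cas9 mutations in the *PLETHORA* transcription factor paralogues *PLT3* and *PLT7*, made in the cultivar M82. Both double mutants overproliferate meristems and branch strongly. The allele of each gene in these plants was not found in the sources, and no WT library was used, so every difference is between the mutants. The study collected meristems from 4 plants and describes 4 independent samples, but does not say outright that each library is 1 plant. Its figure legend on expression in these mutants gives 4 samples for *ej2* *j2* but 2 for *plt3* *plt7*. All 4 libraries of each were used here, and p-values rest on the spread between these libraries. The main test, described below, took most of this spread from other genes of similar level, and only the permutation test used the values of 1 gene alone.

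The plant cuticle is a layer of cutin, a polyester of oxygenated fatty acids and glycerol, filled and covered with waxes, and in shoots it is laid down by the outermost cell layer, the epidermis. Cutin monomers are made inside the cell by fatty acid hydroxylases of the CYP86A family and by glycerol-3-phosphate acyltransferases such as GPAT6. They are exported and then joined outside the cell by cutin synthases, of which tomato CD1 (CUTIN DEFICIENT1) is the type member. Waxes start from very long chain fatty acids, which are extended by enzymes such as the ketoacyl-CoA synthase CER6. Upstream stand the homeodomain (HD-ZIP IV) protein CD2, the AP2-type SHINE (SHN) factors and a MIXTA-like MYB factor, all known from tomato fruit as positive regulators of cuticle formation.

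The values are TPM (transcripts per 1000000), in which reads are divided by transcript length and each library is brought to the same sum, so levels can be compared between genes but the sequencing depth is unknown. A gene without reads is described as listed at 0. The genotypes were tested with limma on log2(TPM + 1), where changes of weakly expressed genes come out too small, across the 19544 genes whose mean was at least 1 TPM, and p-values were adjusted over all of them. A negative difference means a lower level in *plt3* *plt7*. Across all tested genes 359 passed an adjusted p of 0.05, which is 1.84%, and 188 of them (0.962%) were lower in *plt3* *plt7*. *EJ2* and *J2* lay at 1.64 to 22.8 TPM in *ej2* *j2* and at 0 to 0.565 TPM in *plt3* *plt7*. The study itself reports very low levels of both in *plt3* *plt7* meristems, so these values are no independent check of the labels. *PLT3* and *PLT7* were above 1 TPM in all 8 libraries, so reads of the mutated genes do not check the genotypes. *ej2* *j2* replicate 2 stood apart from the other libraries on the second principal component (14.5% of the variance), and the differences of the tested cuticle genes are given with and without it.

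*CD1* was the only one of the 7 tested cuticle genes to pass the test, with a lower level in *plt3* *plt7* meristems. This call was lost in 6 of 17 settings, 4 of them leaving out a single library, and a permutation test on *CD1* alone did not reach 0.05 (exact p = 0.0857). Thus 1 of 7 tested cuticle genes was lower and none was higher, beside 0.962% of all tested genes lower. At an unadjusted p under 0.05, 2 of the 7 passed, *CD1* and *CYP86A69*, beside 13.8% of all tested genes (limma). The differences of the 7 genes ran from -3.46 to 1.21 on the log2 scale with a median of -0.27, and 5 were below 0. Over all tested genes the median was 0.05. The plot of levels by library shows how widely the cuticle genes varied within each genotype.

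**Figure D1:**
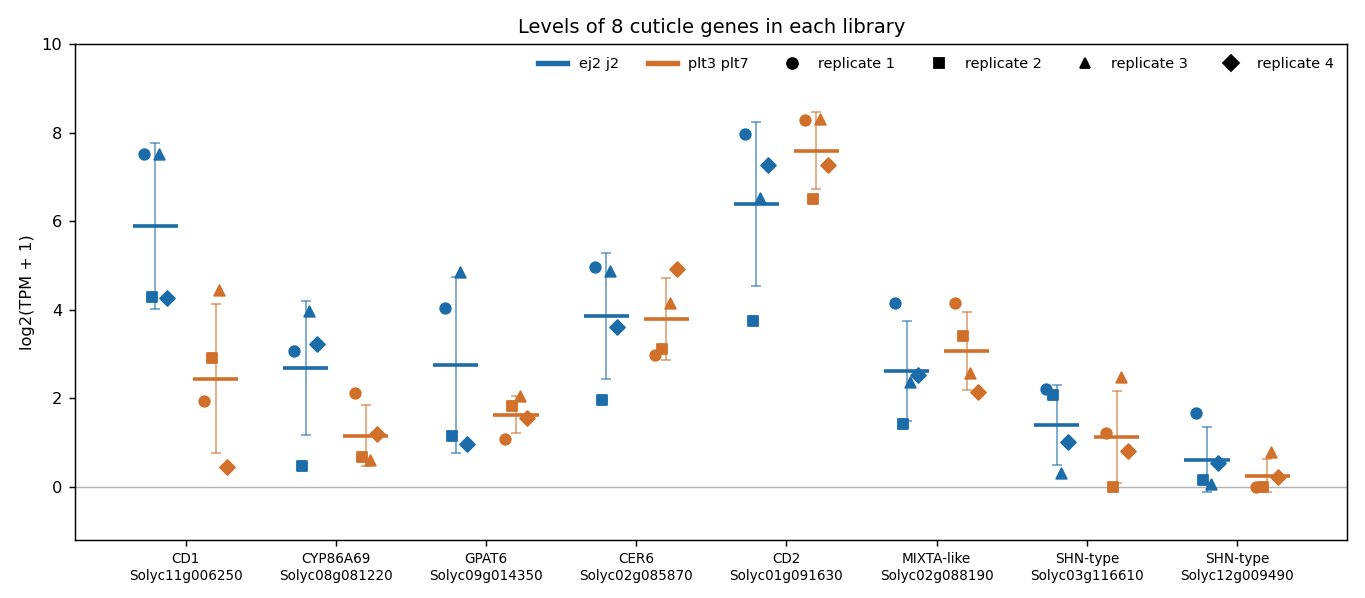
Levels of the 8 cuticle genes as log2(TPM + 1), with 1 point per library (blue, *ej2* *j2*; orange, *plt3* *plt7*; the shape gives the replicate number), the mean as a thick line and the SD as a thin bar (n = 4 per genotype). *CD1* and *CD2* spread over several log2 units, and no gene has genotypes that do not overlap.

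*CD1* (Solyc11g006250), the enzyme that links cutin monomers in the cell wall, was at 183, 18.6, 182 and 18.1 TPM in *ej2* *j2* replicates 1, 2, 3 and 4. In *plt3* *plt7* it was at 2.83, 6.51, 20.9 and 0.359 TPM. *ej2* *j2* replicates 1 and 3 were about 10 times above replicates 2 and 4, and *plt3* *plt7* replicate 3 lay just above the latter, so the genotypes overlapped by this single library. The means were 100.4 ± 94.7 TPM and 7.64 ± 9.17 TPM (SD, n = 4 each), a ratio of 13.1. The log2 difference was -3.46 with a standard error of 0.90 and a 95% interval of -5.23 to -1.69 (adjusted p = 0.0182, limma). The residual SD of *CD1* was 1.78 against 1.10 for the median gene, and limma drew its standard error mostly from genes of similar level. The exact two-sided permutation test, which uses the *CD1* values alone, gave p = 0.0857, where 0.0286 is the smallest p that 4 against 4 libraries allow. Without *ej2* *j2* replicate 2 the log2 difference was -4.00 (adjusted p = 0.0101, limma). Leaving out *ej2* *j2* replicate 1 or 3 raised the adjusted p to 0.104 or 0.119 (limma). Leaving out *plt3* *plt7* replicate 1 or 4 raised it to 0.0708 or 0.162 (limma). The log2 difference stayed between -4.13 and -2.80 whichever library was left out. The adjusted p was 0.225 when weakly expressed genes were not filtered out and 0.0677 with a common, robust prior in place of the intensity trend (limma).

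**Figure D2:**
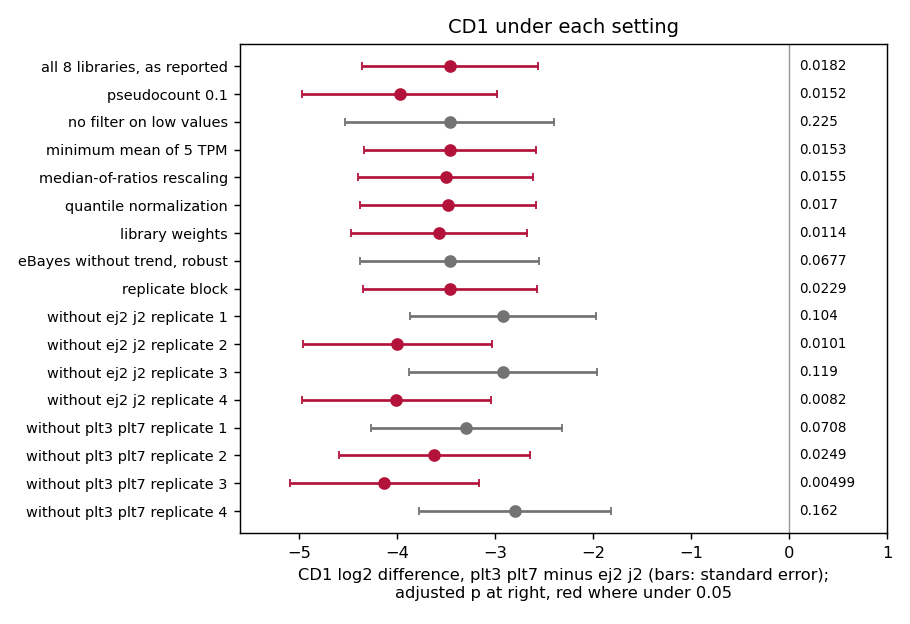
Log2 difference of *CD1*, *plt3* *plt7* minus *ej2* *j2*, over all 8 libraries and under each other setting, as points with the standard error as bars. The adjusted p (limma) is printed at the right and red marks values under 0.05. All 17 estimates lie below 0, between -4.13 and -2.80, and 6 of them are not past the threshold.

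The genes for cutin monomers had lower means in *plt3* *plt7*, but their differences did not pass the test. *CYP86A69* (Solyc08g081220), a fatty acid hydroxylase gene, was at 7.32, 0.391, 14.5 and 8.36 TPM in *ej2* *j2* and at 3.33, 0.596, 0.527 and 1.30 TPM in *plt3* *plt7*. *ej2* *j2* replicate 2 was the lowest of all 8 libraries. Its log2 difference was -1.53 (standard error 0.70, 95% interval -2.90 to -0.15, adjusted p = 0.286, limma), an interval that is not adjusted for the number of genes. Leaving out 1 library at a time gave -2.26 without *ej2* *j2* replicate 2 (adjusted p = 0.0895, limma) to -1.10 without *ej2* *j2* replicate 3 (adjusted p = 0.584, limma).

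*GPAT6* (Solyc09g014350), the acyltransferase gene that acts between hydroxylation and export, was at 15.3, 1.21, 27.6 and 0.959 TPM in *ej2* *j2*. In *plt3* *plt7* its range was narrow, at 1.10, 2.53, 3.12 and 1.91 TPM. As for *CD1*, *ej2* *j2* replicates 1 and 3 were the high libraries, and replicates 2 and 4 lay within or below the range of *plt3* *plt7*. The means were 11.3 ± 12.8 and 2.17 ± 0.863 TPM (SD, n = 4 each), and the log2 difference was -1.13 (standard error 0.74, 95% interval -2.58 to 0.33, adjusted p = 0.534, limma). Without *ej2* *j2* replicate 2 it was -1.66 (adjusted p = 0.316, limma), and without *ej2* *j2* replicates 1 and 3 in turn it was -0.70 and -0.43 (adjusted p = 0.794 and 0.894, limma).

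The wax gene *CER6* (Solyc02g085870), whose enzyme lengthens fatty acids for wax, had no consistent direction between the mutants. It was at 30.4, 2.86, 28.4 and 11.2 TPM in *ej2* *j2* and at 6.80, 7.63, 16.8 and 29.2 TPM in *plt3* *plt7*. High and low libraries occurred in both genotypes. The log2 difference was -0.07 (standard error 0.88, adjusted p = 0.986, limma). Its 95% interval of -1.80 to 1.66 covers sizeable changes in either direction. Leaving out 1 library at a time gave -0.70 (without *ej2* *j2* replicate 2) to 0.30 (without *ej2* *j2* replicate 1) and turned the direction 4 times.

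The regulator *CD2* (Solyc01g091630) was the cuticle gene with the highest mean level, and its mean was higher in *plt3* *plt7*, unlike those of the cutin enzyme genes. It was at 249, 12.5, 91.5 and 153 TPM in *ej2* *j2* and at 309, 89.1, 314 and 154 TPM in *plt3* *plt7*. Apart from *ej2* *j2* replicate 2, all libraries lay between 89.1 and 314 TPM. The means were 127 ± 99.9 and 217 ± 113 TPM (SD, n = 4 each), and the log2 difference of 1.21 did not pass the test (standard error 0.92, 95% interval -0.60 to 3.01, adjusted p = 0.622, limma). Without *ej2* *j2* replicate 2 it was 0.33 (adjusted p = 0.931, limma). *CD2* ranked first among the 8 cuticle genes in all 4 *plt3* *plt7* libraries and in *ej2* *j2* replicates 1 and 4, whereas *CD1* ranked first in *ej2* *j2* replicates 2 and 3.

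The *MIXTA-like* gene (Solyc02g088190), a MYB factor of epidermal cells, was at 16.7, 1.65, 4.18 and 4.77 TPM in *ej2* *j2* and at 16.7, 9.55, 4.91 and 3.42 TPM in *plt3* *plt7*. Replicate 1 was the highest library in both genotypes, which share only the number. The log2 difference was 0.45 (standard error 0.81, 95% interval -1.15 to 2.05, adjusted p = 0.882, limma), and 0.05 without *ej2* *j2* replicate 2 (adjusted p = 0.990, limma).

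The *SHN*-type genes, transcriptional activators of cutin and wax genes, had the lowest mean levels of the 8 cuticle genes over all libraries, although not in every library. Solyc03g116610 was at 3.62, 3.19, 0.243 and 1.00 TPM in *ej2* *j2* and at 1.33, 0, 4.59 and 0.753 TPM in *plt3* *plt7*. The highest and the lowest library were both *plt3* *plt7*, and the log2 difference was -0.27 (standard error 0.61, 95% interval -1.46 to 0.92, adjusted p = 0.912, limma). It was -0.05 without *ej2* *j2* replicate 2 and ran from -0.72 to 0.11 over the libraries left out. Solyc12g009490 was at 2.19, 0.117, 0.0448 and 0.444 TPM in *ej2* *j2*. In *plt3* *plt7* it was listed at 0 in replicates 1 and 2 and was at 0.717 and 0.166 TPM in replicates 3 and 4. With a mean of 0.460 TPM it fell under the minimum for the test. At such levels a gene listed at 0 may still be expressed.

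Exact two-sided permutation tests on single genes were run for all 8 cuticle genes in the table. Beside the exact p = 0.0857 of *CD1*, the unadjusted permutation values were 0.143 for *CYP86A69*, 0.400 for *GPAT6* and 0.971 for *CER6*. They were 0.286 for *CD2*, 0.543 for *MIXTA-like*, 0.714 for Solyc03g116610 and 0.514 for Solyc12g009490. None reached the smallest p that the design allows.

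Deviations from each gene's own mean show which libraries carried these spreads. *ej2* *j2* replicate 1 was the highest *ej2* *j2* library for 6 of the 8 cuticle genes, and replicate 3 was the highest for the other two, *CYP86A69* and *GPAT6*. Over all tested genes, replicate 1 was the highest of its genotype for 27.0%. *ej2* *j2* replicate 2 was the lowest of its genotype for 4 of the 8, *CD2*, *CYP86A69*, *CER6* and *MIXTA-like*, beside 31.8% of all tested genes. In *plt3* *plt7*, replicate 3 was the highest library for 5 of the 8, beside 26.5% of all tested genes. Averaged over the 7 tested genes, the deviation was 1.53, -1.15, 1.04 and -0.04 in the *ej2* *j2* libraries and -0.20, -0.68, 0.21 and -0.69 in the *plt3* *plt7* libraries, on the log2 scale. This mean therefore ranged more widely among *ej2* *j2* libraries than among *plt3* *plt7* libraries in these samples. Solyc03g116610 went the other way, with an SD of 0.90 in *ej2* *j2* and 1.04 in *plt3* *plt7* on the log2 scale. The spread was not compared with that of all tested genes, so it is not shown to be particular to the cuticle genes.

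**Figure D3:**
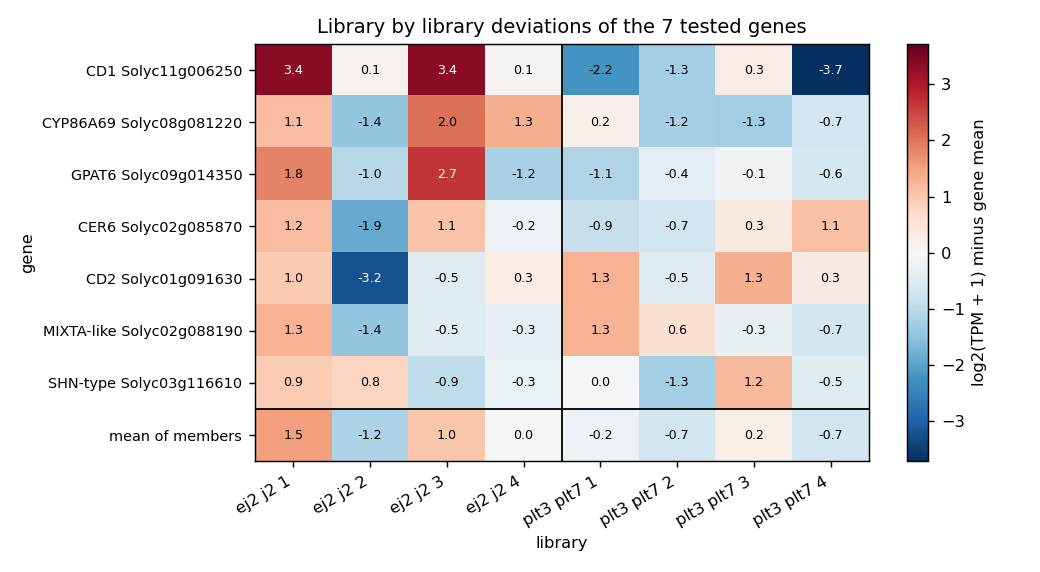
Deviation of log2(TPM + 1) from the gene's mean over 8 libraries (colour and printed value) for the 7 tested cuticle genes in rows and the libraries in columns, with the mean of the 7 in the last row. *CD1* runs from 3.35 in *ej2* *j2* replicate 1 to -3.72 in *plt3* *plt7* replicate 4, and *CD2* is lowest in *ej2* *j2* replicate 2, at -3.23.

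The summed level of the cutin enzyme genes *CD1*, *CYP86A69* and *GPAT6* was set against *CD2* within each library, a comparison chosen after the values were seen and given as a description only. The sum was 205, 20.2, 224 and 27.4 TPM in *ej2* *j2* and 7.26, 9.64, 24.5 and 3.57 TPM in *plt3* *plt7*. Relative to *CD2* of the same library it was 82.4%, 162%, 245% and 17.9% in *ej2* *j2*. In *plt3* *plt7* it was 2.35%, 10.8%, 7.80% and 2.32%, so all 4 values were below those of *ej2* *j2*. The sum itself overlapped, at 24.5 TPM in *plt3* *plt7* replicate 3 and 20.2 TPM in *ej2* *j2* replicate 2. Division by *CD2*, whose mean was higher in *plt3* *plt7*, moved the genotypes further apart. *CD1* made up 66.0% to 92.1% of the sum in *ej2* *j2* and 10.1% to 85.1% in *plt3* *plt7*. The ratio also varied with *CD2*, since *ej2* *j2* replicates 2 and 4 had nearly the same *CD1* level but 12.5 and 153 TPM of *CD2*.

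**Figure D4:**
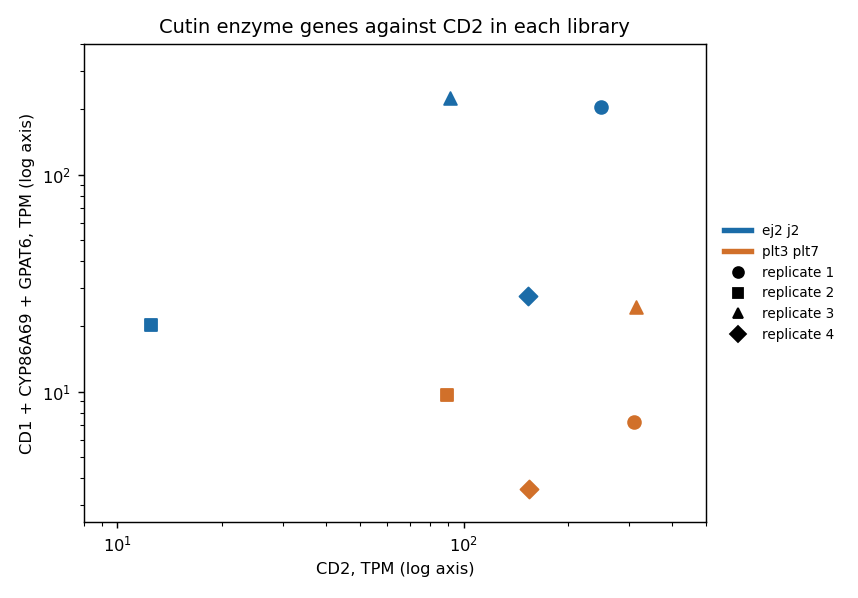
Summed TPM of *CD1*, *CYP86A69* and *GPAT6* against the TPM of *CD2*, both on log axes, with 1 point per library (blue, *ej2* *j2*; orange, *plt3* *plt7*; the shape gives the replicate number). At like levels of *CD2*, such as 153 and 154 TPM in replicate 4 of each genotype, the sum was 27.4 TPM in *ej2* *j2* and 3.57 TPM in *plt3* *plt7*.

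A list of 13 further IDs linked to cuticle formation from general knowledge of tomato genes was examined in the same fit. The tables used here do not annotate these IDs, so the function of each was not checked. Of the 12 tested, none was higher and none was lower (limma, adjusted p under 0.05), and 3 had an unadjusted p under 0.05, all with lower means in *plt3* *plt7*, beside 13.8% of all tested genes in either direction. The differences ran from -1.95 to 0.72 with a median of -0.76, and 9 of 12 were below 0. The libraries of the genotypes did not overlap for 1 of the 12, lower in *plt3* *plt7*. Across all tested genes 6.87% did not overlap in either direction, and 3% were lower. The highest mean levels were those of Solyc01g079240, at 390, 80.4, 158 and 111 TPM in *ej2* *j2* and 11.5, 47.5, 96.4 and 42.3 TPM in *plt3* *plt7* (adjusted p = 0.302, limma), and of Solyc03g025320, at 44.7 to 182 TPM and 34.8 to 127 TPM (adjusted p = 0.839, limma). For the former, 1 *plt3* *plt7* library exceeded an *ej2* *j2* library. Solyc11g007540, chosen after its values were seen because it alone of the 12 did not overlap, was at 2.75, 2.601, 6.87 and 5.80 TPM in *ej2* *j2* and at 1.05, 0.767, 0.525 and 0.112 TPM in *plt3* *plt7* (log2 difference -1.72, standard error 0.64, adjusted p = 0.142, limma).

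**Figure D5:**
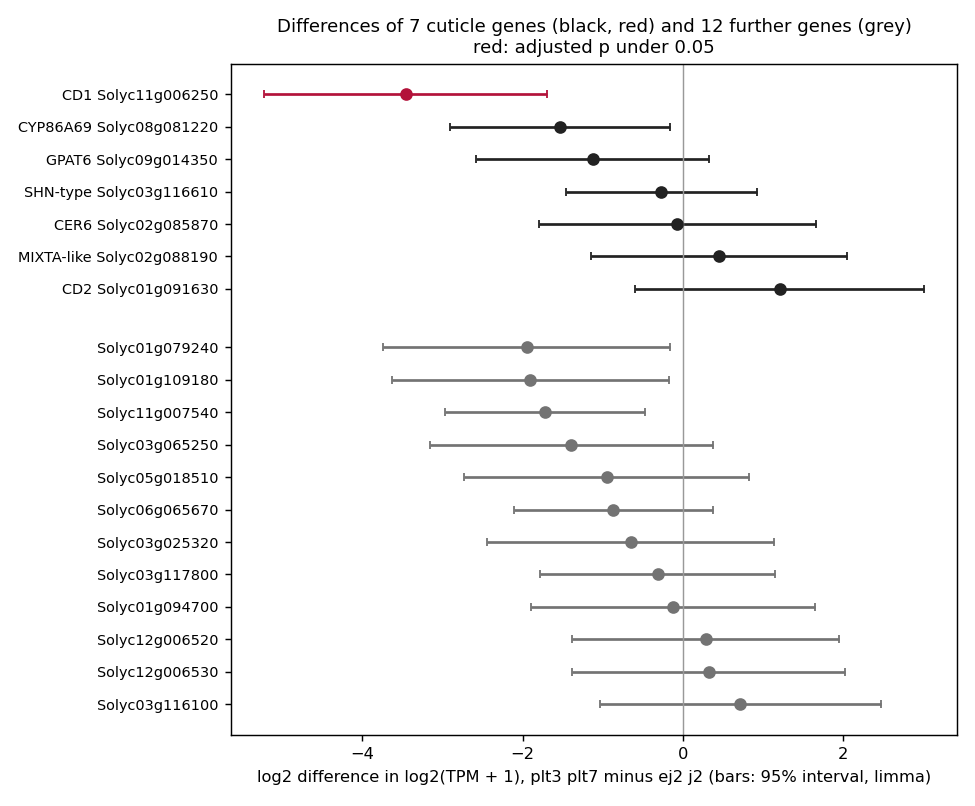
Log2 differences, *plt3* *plt7* minus *ej2* *j2*, with 95% intervals from limma that are not adjusted for the number of genes, for the 7 tested cuticle genes (black, and red where past an adjusted p of 0.05) and 12 further IDs (grey). *CD1* at -3.46 is the only red point, and *CD2* at 1.21 lies at the other end of the cuticle genes.

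In bulk tissue, fewer epidermal cells and less RNA of a gene per cell cannot be told apart. Outside the cuticle genes, 8 IDs taken from general knowledge to be HD-ZIP IV genes, a family active in the outer cell layer, were summed in each library. The tables used here do not annotate them either, and whether the sum follows the amount of epidermis was not tested. They reached 558 to 1049 TPM in *ej2* *j2* and 496 to 1648 TPM in *plt3* *plt7*, ranges that overlap. Single IDs swung widely, such as Solyc03g026070, at 825 TPM in *ej2* *j2* replicate 2 and 6.36 TPM in *plt3* *plt7* replicate 3. None of the 8 was higher or lower (limma, adjusted p under 0.05), and none had an unadjusted p under 0.05. Their log2 differences ran from -1.35 to 0.90, with 4 below and 4 above 0.

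Markers of other tissues were read in the same way, from IDs set from general knowledge. The function of each was not checked, nor whether it measures the amount of a tissue. The 6 meristem IDs were above 0 in every *ej2* *j2* library, with sums of 305 to 1001 TPM there and 86.3 to 689 TPM in *plt3* *plt7*. Of these, 1 was lower (limma, adjusted p under 0.05), beside 0.962% of all tested genes. It was Solyc02g081670, at 0.125 to 8.76 TPM in *ej2* *j2* and listed at 0 throughout *plt3* *plt7* (adjusted p = 0.0242, limma). Of the 6 differences 5 were below 0, with a median of -1.58. The exception was Solyc02g081120, with a log2 difference of 0.67 (adjusted p = 0.836, limma), and Solyc03g118160 was at -0.40 (adjusted p = 0.915, limma). At an unadjusted p under 0.05, 3 of the 6 passed (limma), beside 13.8% of all tested genes in either direction. The libraries did not overlap for 2, Solyc02g081670 and Solyc02g077390, both lower, beside 3% of all tested genes. The latter had a log2 difference of -2.96 (adjusted p = 0.0552, limma). The 7 floral organ IDs summed to 22.5 to 105 TPM and 18.6 to 96.9 TPM. Only 2 of them reached a mean of 1 TPM, and neither passed. Of these, Solyc02g084630 made up most of each sum, at 22.3 to 105 TPM and 18.1 to 96.0 TPM. The other, Solyc08g067230, was at 11.3 TPM in *ej2* *j2* replicate 2 and at most 0.853 TPM in any other library. The 6 green tissue IDs summed to 234 to 538 TPM and 365 to 510 TPM, and none of the 4 tested passed (limma). At an unadjusted p under 0.05, 2 of the 4 passed (limma), beside 13.8% of all tested genes in either direction. For the same 2 the libraries did not overlap, lower in *plt3* *plt7*, beside 3% of all tested genes. Under the minimum for the test, Solyc02g085950 and Solyc02g070970 did not overlap either. They were at 0.117 to 1.05 and 0.778 to 1.10 TPM in *ej2* *j2*, and at 0 and 0 to 0.514 TPM in *plt3* *plt7*. Solyc03g034220, the highest green tissue ID by mean, had the higher mean in *plt3* *plt7* (401 against 269 TPM). Most IDs of the meristem and green tissue lists thus had lower means in *plt3* *plt7*. In each list 1 went the other way, and the summed levels overlapped. These lists may mix genes of different roles, so their differences are not read as amounts of tissue. The part of tissue composition in the *CD1* difference was not tested.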

How the data were processed

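The authors trimmed reads with Trimmomatic, used STAR 2.6.1 for alignment to cDNA models of genome build SL4.0 and deposited TPM values for 34109 genes. Strand setting and treatment of multi-mapping reads were not found in the sources, so close paralogues such as the *SHN* genes may share reads. No counts were used, so no counting error can be given. Values were analysed as log2(TPM + 1) without further scaling, for genes averaging 1 TPM or more, with limma 3.58.1 in R 4.3.3 (eBayes with trend, two-sided, Benjamini-Hochberg over all 19544 genes), with 6 residual and 365 prior degrees of freedom. The procedure was tested on simulated data. Figures were drawn with matplotlib 3.10.9 in Python 3.11.15.

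The cuticle genes, lists and tests were chosen with earlier results of these data known. All 9 were to be named whatever their values, with at most the 2 highest IDs of the further cuticle list, any past the threshold in a list, and the 5 genes most like the mean cuticle profile. Gene names came with the choice of IDs. The RefSeq table of assembly SLM_r2.1 holds 0 IDs of this kind, but lists the symbols *CD1*, *CD2*, *CER6*, *GPAT6* and *SHINE3*, all 5 on the chromosome given in the ID. It holds no sequence, and none is shown. Alternatives were another pseudocount, other filters, 2 scalings, library weights, a common robust prior, a replicate block and leaving out each library.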

Additional observations from a re-analysis of the deposited data

How the results depend on the processing

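Across the settings, *CD1* kept its direction, and the number of cuticle genes past the threshold was 1, or 0 when low genes were not filtered out or a common robust prior was used (1 at an unadjusted p under 0.05 in each, limma); leaving out libraries gave 0 to 1. The number of all genes, 359, was 11 without a filter, 229 with a minimum mean of 5 TPM and 131 with the robust prior, and leaving out libraries gave 138 to 446. No setting called any of the further cuticle IDs (limma; 1 to 4 at an unadjusted p under 0.05). Leaving out libraries turned the direction of *CER6* (-0.70 to 0.30) and Solyc03g116610 (-0.72 to 0.11), neither of which passed anywhere. Rescaling by the median of ratios and quantile normalization turned no cuticle gene. Same-numbered libraries did not deviate together (correlations across genes -0.03 to 0.01), so they share only a number; only replicates 3 and 4 correlated best with their own number. With the replicate block, 303 genes passed and *CD1* had an adjusted p of 0.0229 (limma). TPM keeps no depth, so the precision of low values, such as those of the *SHN*-type genes, is unknown.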

Other observations

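The genes whose libraries followed the mean profile of the 7 tested cuticle genes most closely were sought among 15838 genes averaging 5 TPM or more. Likeness was the root mean square difference over the 8 libraries between centred log2(TPM + 1) values. The closest was Solyc12g008890.3 (0.202 on the log2 scale, mean 5.15 TPM), followed by Solyc03g031600.3 (0.278, mean 18.1 TPM), Solyc04g008740.3 (0.352, mean 236 TPM), Solyc08g075120.3 (0.357, mean 17.2 TPM) and Solyc10g008450.2 (0.360, mean 16.1 TPM). None of these 5 genes passed the test between the genotypes (adjusted p = 0.769 to 0.908, limma), and the tables used here do not annotate them.

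Solyc10g009240, of the further cuticle list, is outside the naming rule above and was chosen after its values were seen. This gene lay under the minimum for the test. It was at 1.23, 0.219, 2.28 and 0.968 TPM in *ej2* *j2*, listed at 0 in *plt3* *plt7* replicates 1, 2 and 4, and at 0.123 TPM in replicate 3. At such levels a gene listed at 0 may still be expressed.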
